A study of Mus musculus with 6 samples.

Results

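Gzma-high cells were single cells with at least 3 unique molecular identifiers (UMIs, each standing for 1 captured RNA molecule) of Gzma, the gene of granzyme A. Among 60671 filtered cells of 6 libraries, 2408 met this threshold, or 3.97%. Granzyme A is a serine protease that natural killer (NK) cells and cytotoxic T cells store in granules and release, with perforin, into target cells. It is also transcribed in some innate lymphoid cells (ILCs) and in early T-cell progenitors, which do not kill. Because Gzma UMIs chose the cells, their Gzma values are given as a description without a test, and every test below left Gzma out.

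The libraries held progenitors made from bone marrow of C57BL/6 mice and cultured on OP9-DL1, a mouse stromal line that presents the Notch ligand Delta-like 1. All mice carried a Bcl11b-YFP reporter at both copies of Bcl11b, which encodes a transcription factor of T-lineage commitment. WT mice had the intact locus, and ΔTE mice were homozygous for a deletion of an enhancer that times Bcl11b activation. Progenitors sorted as DN1 (CD44+CD25−), DN2a (CD44+CD25+ without Bcl11b-YFP) or DN2b (CD44+CD25+ with Bcl11b-YFP) were cultured again for 4 days and profiled by sci-RNA-seq3, which barcodes fixed cells or nuclei in successive rounds of plates. By the paper's methods, cultures of this experiment were given the cytokines IL-7, IL-2, IL-15 and stem cell factor, and its T-cell cultures Flt3-L. Each of the 6 conditions was 1 library from pooled mice of both sexes, spread over 3 wells that were read from the barcode names. These wells were taken as reverse-transcription wells and treated as technical parts of the library, not as replicates. Shares and levels were therefore not tested between conditions; the only test with genotype took the 3 starts of a genotype together, for the difference between Gzma-high and other cells. The libraries held 14419647, 14555100 and 8321964 UMIs in WT from the DN1, DN2a and DN2b starts and 11926879, 12998440 and 8007395 UMIs in ΔTE. Values below follow this order. No barcode was shared by filtered cells of different libraries. The WT DN2a library stood apart in RNA quality, with a median of 13.3% mitochondrial UMIs against 20.9% to 23.9% in the other libraries.

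Gzma-high cells were more frequent in every ΔTE library than in the WT library of the same start. They made up 223 of 10925 cells (2.04%, exact Clopper-Pearson 95% interval 1.78% to 2.32%), 481 of 19489 (2.47%, 2.25% to 2.70%) and 107 of 4968 (2.15%, 1.77% to 2.60%) in WT. In ΔTE the shares were 493 of 10294 cells (4.79%, 4.38% to 5.22%), 925 of 11594 (7.98%, 7.49% to 8.49%) and 179 of 3401 (5.26%, 4.54% to 6.07%). The lowest ΔTE share lay above the highest WT share, and DN2a gave the highest share of each genotype. Wells ranged from 1.61% to 2.60% in WT and from 3.50% to 9.09% in ΔTE, without overlap. The log2 ratio of ΔTE to WT shares was 1.23 (1.00 to 1.47), 1.69 (1.53 to 1.85) and 1.29 (0.94 to 1.65) by start, with intervals that cover counting error only. After each cell was thinned to 300 UMIs the ratios were 1.39, 1.62 and 1.42. Thinned shares were 0.476%, 0.867% and 0.725% in WT and 1.25%, 2.67% and 1.94% in ΔTE, after 1266, 4723, 555, 1010, 1471 and 462 shallower cells were left out.

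**Figure D1:**
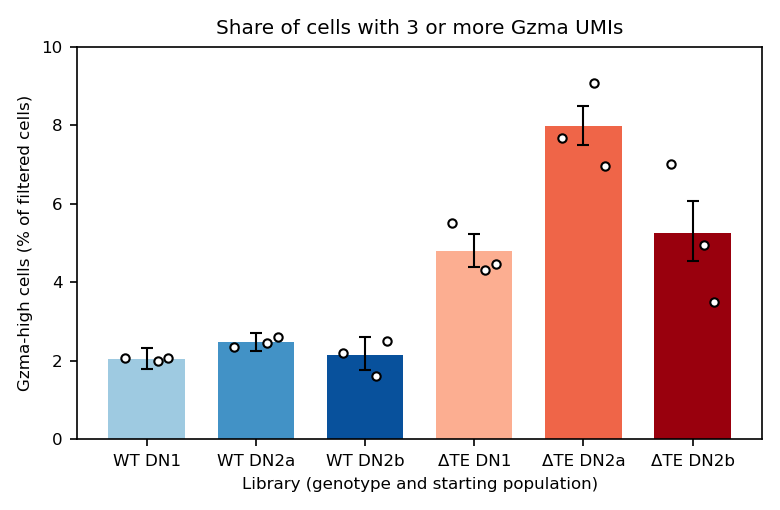
Share of filtered cells with 3 or more Gzma UMIs (y axis, percent) in each library (x axis). Bars are library shares, lines are exact 95% Clopper-Pearson intervals and open circles are the 3 wells read from the barcode names. All ΔTE wells (3.50% to 9.09%) lie above all WT wells (1.61% to 2.60%).

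The threshold fell inside a continuous distribution. Gzma was at 0 UMIs in 43056 cells, 1 UMI in 11338, 2 UMIs in 3869, 3 UMIs in 1460, 4 UMIs in 537 and 5 or more in 411 cells, with a maximum of 13. Cells with 3 UMIs, just inside the threshold, made up 60.6% of all Gzma-high cells, and the 3869 cells with 2 UMIs lay just outside it. Over all filtered cells Gzma was at 566, 829 and 593 CPM (the usual counts-per-million scale, UMIs of the gene over all UMIs of the same cells) in WT and 877, 1344 and 1060 CPM in ΔTE. Gzma-high cells held 22.9% to 23.6% of the Gzma UMIs of WT libraries and 35.9% to 41.4% of those of ΔTE libraries. Any Gzma UMI was found in 29.0% of all cells, and no gap in the counts set Gzma-high cells apart.

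Free RNA was gauged in cells that carried at least 3 UMIs of 14 stromal genes, which should lack Gzma if they are stromal cells alone. No doublet caller was used, so barcodes that joined a stromal cell with a progenitor may be among them, which was not tested. Any Gzma UMI was found in 7.59% to 17.8% of these stromal cells (median depth 516 to 675 UMIs) against 21.5% to 42.1% of cells without a stromal UMI (374 to 477 UMIs). At least 3 Gzma UMIs were found in 0% to 1.95% of stromal cells and in 2.07% to 8.18% of cells without a stromal UMI. The 0 came from 45 stromal cells of ΔTE DN2b, with an exact upper bound of 7.87%. Cells without a stromal UMI were thus above stromal cells at a lower depth, but for 3 or more UMIs the exact intervals of both kinds overlapped in every library other than those from DN2a.

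Each Gzma-high cell was compared with up to 3 cells of the same library that had 0 Gzma UMIs and a total within 10% of its own, here called matched cells. All 2408 found a match, with 6964 matched cells in all. UMIs were summed per library and group and tested with edgeR's quasi-likelihood test with the library as a block. Of 10985 genes tested, 195 (1.78%) were higher and 685 (6.24%) lower in Gzma-high cells at an adjusted p under 0.05. The median log2 fold change over all genes tested was -0.013. Higher genes moved little, with a median of 0.52. Lower genes had a median of -2.47, or -2.23 with genes at 0 at their bound, and 374 of them had under 10 UMIs in all Gzma-high cells together. Among genes with at least 5 UMIs in a library, 100 of the 195 higher and 574 of the 685 lower genes kept 1 direction in every such library.

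The counts changed with the tool, with the set of cells and with the libraries in the fit. DESeq2 called 48 genes higher and 215 lower, all among those of edgeR. Of 74 named genes that passed with edgeR, 47 did not pass with DESeq2 and 60 did not pass with no library block. With at most 20% mitochondrial UMIs 46 of 69 such calls were lost, and with at least 5 Gzma UMIs 39 of 62. Both settings also left fewer Gzma-high cells. Among those lost with DESeq2 were Cd3g, Cd44, Sox13, 5830411N06Rik, Nkg7, Zbtb16, Fcer1g, Id2, Icos, Csf1r, Mef2c and Il7r, described below, with DESeq2 adjusted p from 0.0778 (Cd3g) to 0.999 (Csf1r). So were Cxcr5, Gpr25, Zfp658, Cybb, Prrx2, Itgae, Txk, Lamp2, Tnfsf11, Il17rb and Il1r1. Id3, Tcf4, Tcf12, Lyn, Cd247, Hells, Mcm5 and Rrm2 were lost as well. DESeq2 adjusted p of these further genes ran from 0.0561 (Cxcr5) to 0.999 (Cybb). Without the WT DN2a library edgeR called 119 and 443 genes, and without the ΔTE DN2a library 101 and 415. In only those cells that had no UMI of the stromal and myeloid lists, a choice made after seeing the data, 48 genes (0.487%) were higher and 31 (0.315%) lower of 9849 tested. This set was also smaller, with 719 Gzma-high cells in place of 925 in ΔTE DN2a, and the loss of cells and the loss of stromal and myeloid RNA cannot be told apart in these counts. Of these, 44 and 21 were shared with the calls in all cells. Among named genes 36 of 57 calls were lost there. All 194 higher genes that could be tested there kept their direction (median 0.37), as did 228 of 275 lower genes (median -0.41). Most genes of either direction were thus no longer called in these cells, and most that could be tested kept their direction.

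Leaving out 1 library ended the calls of some genes described below. Without WT DN2a, 13 of 73 named calls were lost, among them Hells, Il17rb, Cd247, Tcf12, Il1r1, Mcm5, Rrm2 and Tnfsf11, with edgeR adjusted p from 0.0573 (Hells) to 0.380 (Tnfsf11), and Tyrobp, an adaptor of activating receptors that was at -0.36 with all 6 libraries (adjusted p = 0.139), passed at -0.49 (adjusted p = 0.0369). Without ΔTE DN2a 20 of 72 calls were lost, among them Srgn (adjusted p = 0.0754), Nkg7 (0.140), Itgae (0.142), Txk (0.171), Tcf4 (0.211), Il1r1 (0.0824), Tcf12 (0.0893), Il17rb (0.525) and also Hells (0.136), Rrm2 (0.143) and Mcm5 (0.504). Without ΔTE DN1 13 of 73 were lost, among them Zbtb16 (adjusted p = 0.0865), Sox13 (0.0879), Zfp658 (0.104), Cd44 (0.131), Csf1r (0.216), Cd247 (0.218), Il17rb (0.230), Lyn (0.254) and Tcf12 (0.265), and the log2 fold change of Il7r, also lost, was 0.38. Each of the other libraries ended 4 to 7 calls, among them Id2 (adjusted p = 0.0527) and Icos (0.247) without ΔTE DN2b, Sox13 (0.132), Rrm2 (0.168), Il17rb (0.0796) and Lyn (0.0962) without WT DN1, and 5830411N06Rik without either DN2b library (0.181 for WT and 0.0617 for ΔTE). Tcf12 was also lost without WT DN1 (0.0676) and WT DN2b (0.157), and Zfp658 without WT DN1 (0.241), WT DN2b (0.0561) and ΔTE DN2b (0.0582). Thy1, Il2ra, Themis, Bcl11b, Cd3g and Gata3 passed without any 1 library.

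**Figure D2:**
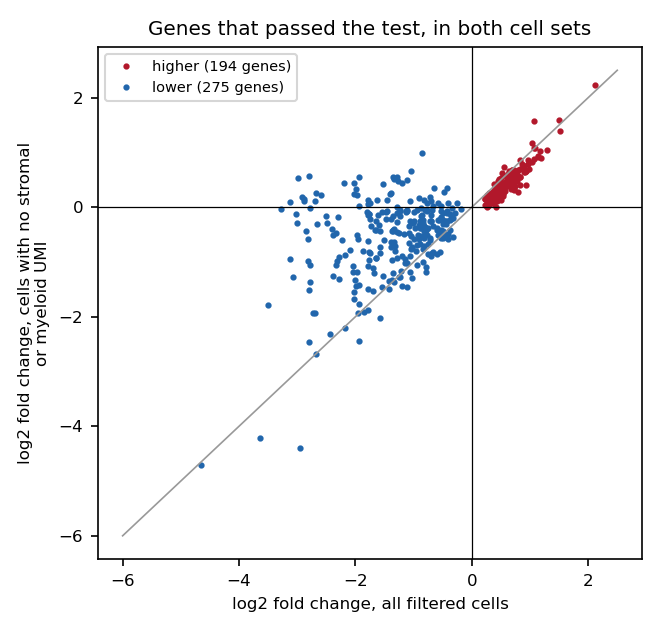
Log2 fold change of Gzma-high against matched cells in all filtered cells (x axis) and in cells with no stromal or myeloid UMI (y axis), for the 194 higher (red) and 275 lower (blue) genes tested in both. The grey line marks equal values; of the higher genes 179 lie below it and all lie above 0 on the y axis (median 0.37), and the lower genes have a median of -0.41 on the y axis.

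Several genes of the T lineage were higher in Gzma-high cells. Of 18 T-lineage genes tested, 9 were higher and 0 lower, against 1.78% and 6.24% of all genes tested, with a median log2 fold change of 0.44 against -0.013 over all genes. In cells without stromal or myeloid UMIs 3 of the 18 were higher, against 0.487% of all genes tested there, with a median of 0.29. Summed over the list, UMIs were at 3955, 6978 and 7467 CPM in Gzma-high cells of WT and 4065, 5819.9 and 7035 CPM in those of ΔTE, against 2320.4, 4857 and 5701 CPM and 2244, 4088 and 4861 CPM in matched cells. Every library was higher in its Gzma-high cells. Over all filtered cells the sum was 2771, 5854 and 6370 CPM in WT and 2769, 4882 and 6019 CPM in ΔTE. These values lay between those of matched and Gzma-high cells in every library.

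Thy1, a surface glycoprotein of T-lineage cells, was at 346, 642 and 1037 CPM in Gzma-high cells of WT and 407, 683 and 1234 CPM in those of ΔTE, against 137, 364 and 536 CPM and 148, 365 and 566 CPM in matched cells. Its level was higher in Gzma-high cells of all 6 libraries and all 18 wells. The log2 fold change was 1.04 ± 0.087 (SE) with an edgeR adjusted p of 1.98e-30, and it was 0.82 without stromal and myeloid UMIs (adjusted p = 1.03e-17). Il2ra, which encodes CD25 and marks the DN2 stages, was at 2341, 3985 and 2982 CPM in Gzma-high cells of WT and 2687, 3502 and 2821 CPM in those of ΔTE, against 1377, 2813 and 2482 CPM and 1498, 2407 and 1932 CPM in matched cells. Here too Gzma-high cells were higher in 6 of 6 libraries (log2 fold change 0.57 ± 0.066 (SE), edgeR adjusted p = 2.04e-15), and the value was 0.29 without stromal and myeloid UMIs (adjusted p = 0.00141). Themis, a regulator of T-cell receptor signalling, was at 46.9, 126 and 58.2 CPM in Gzma-high cells of WT and 99.3, 156 and 92.3 CPM in those of ΔTE, against 23.5, 27.6 and 46.6 CPM and 27.6, 88.9 and 86.3 CPM in matched cells. All 6 libraries were higher in Gzma-high cells (log2 fold change 1.15, edgeR adjusted p = 9.26e-10), with a small margin in both DN2b libraries.

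Bcl11b itself was at 329, 632 and 1013 CPM in Gzma-high cells of WT and 129, 281 and 504 CPM in those of ΔTE, against 205, 449 and 812 CPM and 66.2, 224 and 444 CPM in matched cells. Gzma-high cells were above matched cells in 6 of 6 libraries (log2 fold change 0.43 ± 0.095 (SE), edgeR adjusted p = 0.000169), and levels stood in the order DN1, DN2a, DN2b in both genotypes, without a test. In cells without stromal or myeloid UMIs the log2 fold change of Bcl11b was 0.30 and no longer passed the test (adjusted p = 0.189). Cd3g, a chain of the CD3 complex, was at 170.2, 407 and 629 CPM in Gzma-high cells of WT and 47.2, 109 and 520.5 CPM in those of ΔTE, against 48.9, 294 and 509 CPM and 23.0, 104 and 342 CPM in matched cells. Gzma-high cells were higher in all 6 libraries (log2 fold change 0.48, edgeR adjusted p = 0.000716), and this call was likewise lost in cells without stromal or myeloid UMIs (log2 fold change 0.40, adjusted p = 0.0972). With at least 5 Gzma UMIs as the threshold the log2 fold change of Cd3g was -0.031. Gata3, a factor of both T cells and ILC2s, was at 158, 222 and 326 CPM in Gzma-high cells of WT and 219, 267 and 277 CPM in those of ΔTE, against 60.7, 133 and 214 CPM and 112, 184 and 319 CPM in matched cells. Only ΔTE DN2b was lower among its Gzma-high cells, and the log2 fold change over all libraries was 0.62 (edgeR adjusted p = 1.29e-06).

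Some T-lineage genes were chosen after their values were seen. Trat1, an adaptor of the T-cell receptor complex, was higher by 0.82 on the log2 scale in 5 of 6 libraries (edgeR adjusted p = 5.04e-11). Cd24a, high on early thymocytes, was higher by 0.47 in 6 of 6 libraries (edgeR adjusted p = 9.56e-05). Cd44, a marker used in the sort, went the other way by -0.50 in 5 of 6 libraries (edgeR adjusted p = 0.00709), with WT DN2b the exception.

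**Figure D3:**
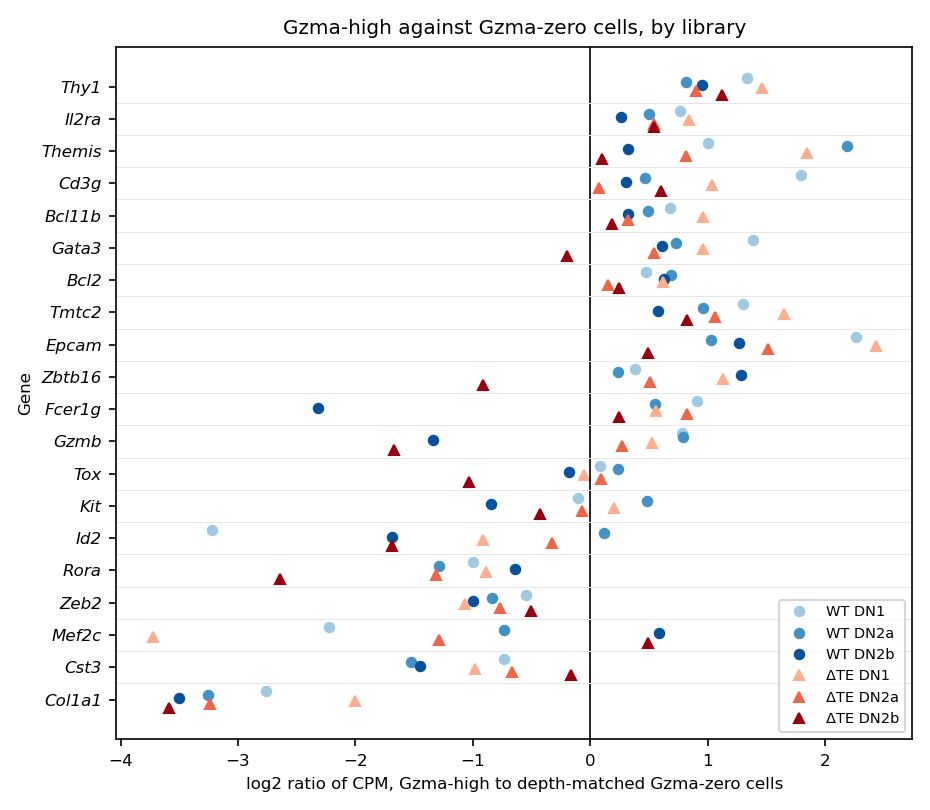
Log2 ratio of CPM in Gzma-high to matched Gzma-zero cells (x axis) for genes picked after their values were seen (y axis) in each WT (circles) and ΔTE (triangles) library. There is no point where either sum had 0 UMIs; Thy1 lies right of 0 in every library, Col1a1 and Rora left of it, and Gzmb and Fcer1g on both sides.

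Some genes outside the T-lineage list were also among those with the highest fold changes. Tmtc2, a transmembrane protein of the endoplasmic reticulum, was at 458, 979 and 862 CPM in Gzma-high cells of WT and 589, 888 and 613 CPM in those of ΔTE, against 186, 504 and 579 CPM and 188, 425 and 345 CPM in matched cells. Every library was higher among Gzma-high cells (log2 fold change 1.08 ± 0.085 (SE), edgeR adjusted p = 8.33e-34), and Tmtc2 was the only named gene that passed the test under every alternative. Epcam, an adhesion molecule, was at 46.9, 56.2 and 46.6 CPM in Gzma-high cells of WT and 59.6, 68.3 and 50.4 CPM in those of ΔTE, against 9.78, 27.6 and 19.4 CPM and 11.0, 24.0 and 35.7 CPM in matched cells. Counts were small, 104 UMIs in Gzma-high and 100 in matched cells, and higher in 6 of 6 libraries (log2 fold change 1.51 ± 0.24 (SE), edgeR adjusted p = 1.84e-08). Gpr25 and Zfp658 had the highest log2 fold changes, 2.30 and 2.12, on 15 and 14 UMIs in Gzma-high cells (edgeR adjusted p = 0.0322 and 0.0480), with 2 libraries and 1 library reaching 5 UMIs. Neither passed with DESeq2 (adjusted p = 0.836 and 0.223). Bcl2, which protects lymphocytes from death, was higher in 6 of 6 libraries (log2 fold change 0.45, edgeR adjusted p = 2.29e-08), and was at 0.24 without stromal and myeloid UMIs (adjusted p = 0.0488).

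Some genes known from γδ T cells were among the higher ones. Of 7 γδ T-cell genes tested, 3 were higher and 0 lower, with a median of 0.47; over all genes tested 1.78% were higher and 6.24% lower. Their sum did not move one way, at 657, 906 and 1619 CPM in Gzma-high cells of WT and 735, 1004 and 1452 CPM in those of ΔTE, against 693, 1067 and 1235 CPM and 631, 841 and 1348 CPM in matched cells. It was lower in Gzma-high cells of WT DN1 and WT DN2a and higher in the other 4 libraries. Cd163l1, a scavenger receptor of γδ T cells, was higher in 6 of 6 libraries (log2 fold change 0.86, edgeR adjusted p = 1.1e-05), as were 5830411N06Rik (0.64, adjusted p = 0.0137) and Sox13 (0.89, adjusted p = 0.0184). In cells without stromal or myeloid UMIs 5830411N06Rik was at 0.51 and Sox13 at 0.75, and neither passed the test (adjusted p = 0.435 and 0.411). With at least 5 Gzma UMIs 5830411N06Rik was at -0.16. Sox4, the most abundant gene of that list, was not called. Of 3 mast-cell and basophil genes tested, only Cpa3 was higher. Cpa3, a mast-cell protease that is also transcribed in early progenitors, was at 487, 734 and 443 CPM in Gzma-high cells of WT and 641, 872 and 520.5 CPM in those of ΔTE, against 391, 469.7 and 392 CPM and 385, 624 and 432 CPM in matched cells. It was higher in 6 of 6 libraries (log2 fold change 0.50, edgeR adjusted p = 3.07e-07), but did not pass without stromal and myeloid UMIs (0.26, adjusted p = 0.153), and 8 of the 12 mast-cell and basophil genes had 0 UMIs in Gzma-high cells.

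Several defining genes of killer lymphocytes were scarcely detected in Gzma-high cells. Prf1, the gene of perforin, had 2 UMIs in all Gzma-high cells and 1 in matched cells, too few to test. Tbx21 had 0 and 4 UMIs and Eomes 1 and 3; both encode T-box factors of NK cells and ILC1s. None of the 11 Ly49 receptor genes had enough UMIs to test, and Klra5, the most abundant, had 0 UMIs against 8. Of 19 NK or ILC1 genes tested, 3 were higher and 1 lower, against 1.78% and 6.24% of all genes tested, with a median of -0.0091. The higher ones were Itgae, Txk and Tnfsf10, of which Itgae and Txk are also known from T cells, and Itga1 was lower; Tnfsf10 was named after its values were seen. In cells without stromal or myeloid UMIs 0 of 18 NK or ILC1 genes tested passed, against 0.487% of all genes higher and 0.315% lower. A count of 0 is near those shares. Itgae was there at 0.65 (edgeR adjusted p = 0.139), Txk at 0.40 (0.778) and Itga1 at -0.31 (0.972, against -2.67 in all cells). Of 15 genes of cytotoxic granules and their release, 3 were higher and 1 lower, against 1.78% and 6.24% of all genes. The higher ones were Nkg7 (0.39, edgeR adjusted p = 0.00160, 5 of 6 libraries), Srgn (0.34, adjusted p = 0.00177, 6 of 6 libraries) and Rab27a, the last named after its values were seen. The lower one was Lamp2, a lysosomal membrane protein (6 of 6 libraries, -0.53, edgeR adjusted p = 0.00231). None of these 4 passed in cells without stromal or myeloid UMIs, where again 0.487% of all genes were higher and 0.315% lower. Lamp2 was there at -0.41, Srgn at 0.23, Rab27a at 0.20 and Nkg7 at 0.057, all in the direction seen in all cells.

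Gzmb, the gene of granzyme B, was at 323, 294 and 81.5 CPM in Gzma-high cells of WT and 305, 287 and 209.9 CPM in those of ΔTE, against 188, 169.8 and 206 CPM and 213, 237 and 667 CPM in matched cells. It was higher in Gzma-high cells of both DN1 and both DN2a libraries and lower in both DN2b libraries. Over all libraries the log2 fold change was 0.17 ± 0.10 (SE) and did not pass the test (edgeR adjusted p = 0.414). Without the ΔTE DN2b library it was 0.45, which passed (edgeR adjusted p = 0.000598). The matched cells of ΔTE DN2b held the highest Gzmb level of all 12 sums.

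The ΔTE DN2b library was also apart for ILC genes. ILC precursor factors summed to 3832, 4554 and 4706 CPM in Gzma-high cells of WT and 4788, 5322 and 3979 CPM in those of ΔTE, against 3735, 3557 and 4217 CPM and 3889, 4509 and 5813 CPM in matched cells, so that only ΔTE DN2b was lower in its Gzma-high cells. Of 18 such genes tested, 6 were higher and 4 lower, with a median of 0.23, against 1.78% and 6.24% of all genes. Without stromal and myeloid UMIs 1 was higher and 2 lower, with a median of 0.050, against 0.487% and 0.315% of all genes. Zbtb16, which encodes PLZF, a factor of innate-like lymphocytes, was at 346, 268 and 303 CPM in Gzma-high cells of WT and 646, 598 and 243 CPM in those of ΔTE, against 266, 227 and 124 CPM and 294, 420.5 and 458 CPM in matched cells. It was higher in 5 of 6 libraries and lower in ΔTE DN2b (log2 fold change 0.50 ± 0.094 (SE), edgeR adjusted p = 4.63e-06), but did not pass without stromal and myeloid UMIs (0.26, adjusted p = 0.293), nor without the ΔTE DN1 library. Fcer1g, an adaptor of activating NK receptors, was at 235, 136 and 11.6 CPM in Gzma-high cells of WT and 283, 384 and 176 CPM in those of ΔTE, against 125, 92.6 and 58.3 CPM and 192, 217 and 149 CPM in matched cells. Of 6 libraries, 5 were higher (log2 fold change 0.64, edgeR adjusted p = 7.2e-07), with 1 UMI in Gzma-high cells of WT DN2b.

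Rora, a factor needed for ILC2s, was at 23.5, 39.7 and 105 CPM in Gzma-high cells of WT and 14.9, 37.9 and 42.0 CPM in those of ΔTE, against 47.0, 97.0 and 163 CPM and 27.6, 94.1 and 262 CPM in matched cells. It was lower in 6 of 6 libraries (log2 fold change -1.35 ± 0.20 (SE), edgeR adjusted p = 1.07e-09), and was also lower without stromal and myeloid UMIs (-1.21, adjusted p = 9e-05). Zeb2, a repressor active in NK and myeloid cells, was lower in 6 of 6 libraries (log2 fold change -0.82, edgeR adjusted p = 4.48e-08), and also without those UMIs (-0.71, adjusted p = 0.00274). Id2, an inhibitor of E proteins needed by all ILCs, was at 5.87, 43.0 and 34.9 CPM in Gzma-high cells of WT and 27.3, 48.5 and 75.6 CPM in those of ΔTE, against 54.8, 39.7 and 113 CPM and 51.5, 60.8 and 244 CPM in matched cells. It was lower in 5 of 6 libraries (log2 fold change -0.84, edgeR adjusted p = 0.000818), but without ΔTE DN2b it no longer passed, nor did Icos, the ILC2 and T-cell costimulator (log2 fold change -1.70 in 5 of 5 libraries with at least 5 UMIs, edgeR adjusted p = 0.00181). Of 6 ILC2 and 6 ILC3 or LTi genes tested, Il17rb, Cxcr5 and Tnfsf11 were higher and Icos and Il1r1 lower, where all genes gave 1.78% and 6.24%. Of these 12, 1 was higher and 0 lower without stromal and myeloid UMIs, where all genes gave 0.487% and 0.315%.

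Stromal genes were lower in Gzma-high cells. All 13 stromal genes tested were lower, against 6.24% of all genes, with a median log2 fold change of -2.87, or -2.80 with genes at 0 at their bound. Their sum was 258, 473 and 326 CPM in Gzma-high cells of WT and 176, 303 and 101 CPM in those of ΔTE, against 878, 4691 and 1130.1 CPM and 445, 2275 and 914 CPM in matched cells. The matched cells of WT DN2a and ΔTE DN2a carried the most stromal RNA. Over all filtered cells the sum was 580, 2282 and 847 CPM in WT and 325, 1278 and 403 CPM in ΔTE. In every library matched cells thus held more stromal RNA, and Gzma-high cells less, than all filtered cells. Col1a2, the most abundant stromal gene, had 106 UMIs in Gzma-high and 2229 in matched cells, Dll1 was not among the genes tested, and the part of stromal cells in the other lower genes was not tested beyond the cells without stromal or myeloid UMIs. Ebf1, a factor of B cells and of stromal adipocyte precursors, was lower in 6 of 6 libraries (log2 fold change -3.23, edgeR adjusted p = 1.66e-34). Among the 8 lowest genes Fst was at least 9.41-fold lower and Prrx2 at least 5.91-fold lower, and Cybb, an oxidase subunit of phagocytes that is not a stromal gene, was at least 7.60-fold lower, with 0 UMIs in Gzma-high cells taken as 3 counts over all of them. Without cells of 2 or more stromal UMIs, a set of cells chosen on these genes, Col1a2 was at 0.45.

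Several myeloid and multipotent progenitor genes were also lower. Of 20 myeloid genes tested, 9 were lower and 0 higher, against 6.24% and 1.78% of all genes, with a median of -1.46, or -1.34 with genes at 0 at their bound, and the list summed to 376, 251 and 93.2 CPM in Gzma-high cells of WT and 375, 275 and 243 CPM in those of ΔTE, against 1168, 605 and 268 CPM and 925, 499 and 217 CPM in matched cells. Only ΔTE DN2b was not lower in its Gzma-high cells. Cst3, the most abundant, was lower in 6 of 6 libraries (log2 fold change -0.92, edgeR adjusted p = 7.94e-15). Mpo, a granule enzyme of myeloid precursors, was lower in 5 of 5 libraries with at least 5 UMIs (log2 fold change -1.34, edgeR adjusted p = 1.29e-06). Csf1r, the receptor of macrophage growth, had 1 UMI against 68 (edgeR adjusted p = 7.48e-05, lower in 3 of 3 libraries). Of 14 multipotent progenitor genes tested, 4 were lower and 1, Mycn, named after its values were seen, was higher, against the same shares of all genes. Without stromal and myeloid UMIs 1 was lower and 0 higher, against 0.315% and 0.487%. Mef2c, a factor of lymphoid and myeloid precursors, was at 29.3, 13.2 and 23.3 CPM in Gzma-high cells of WT and 9.93, 4.55 and 8.39 CPM in those of ΔTE, against 137, 22.1 and 15.5 CPM and 132, 11.1 and 5.95 CPM in matched cells. Its decrease was carried by the DN1 and DN2a libraries, and it held without stromal and myeloid UMIs (-2.21, edgeR adjusted p = 5.8e-05, against -2.19 and 1.73e-10 in all cells).

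Genes of common gamma chain receptors and their signalling, which serve lymphoid cytokines, were higher in part. Of 16 tested, 5 were higher and 0 lower, against 1.78% and 6.24% of all genes, with a median of 0.19. Without stromal and myeloid UMIs 2 were higher, against 0.487%. Il7r, the receptor of IL-7, was among the 5 (0.59, edgeR adjusted p = 0.000156, 6 of 6 libraries, and 0.44 with adjusted p = 0.134 without stromal and myeloid UMIs). The list summed to 4765, 7411 and 6547 CPM in Gzma-high cells of WT and 5575, 6433 and 6162 CPM in those of ΔTE, against 3329.9, 5255 and 5103 CPM and 3557, 5009 and 4837 CPM in matched cells. Every library was higher in its Gzma-high cells, and Il2ra, which the T-lineage list also holds, was the most abundant gene of both lists.

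The cell-cycle lists and several smaller groups of regulators were also tested, for which 1.78% higher and 6.24% lower over all genes are the background. In cells without stromal or myeloid UMIs the background was 0.487% higher and 0.315% lower, so that a count of 0 there is near it. Of 22 S-phase genes, 4 were higher (Hells, Mcm5, Rrm2 and, named after its values were seen, Mcm6), none in cells without stromal or myeloid UMIs, and of 24 G2/M genes 0 were called, with medians of 0.30 and 0.063. Of 15 ITAM adaptors and kinases, Fcer1g and Cd247 were higher and Lyn lower, with a median of 0.10. Of 8 alarmin and IL-12 family receptors, 1 was higher and 2 lower, and of 15 Runx, Ikaros and BTB factors, 1 was higher and 3 lower. Runx1 and Runx3 were not called (edgeR adjusted p = 0.961 and 0.0911), the latter with higher values in 6 of 6 libraries. Of 6 E proteins and Id genes, Tcf12 was higher and Id3, Id2 and Tcf4 lower, but 0 of the 6 passed without stromal and myeloid UMIs, where the log2 fold change of Id3 was 0.14. Of 8 Notch targets only Il2ra passed, and of 8 survival and death genes only Bcl2 was higher.

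Levels were graded with Gzma UMIs below the threshold as well. In the mean over 6 libraries, and without matching for depth, Thy1 was at 419 CPM in cells with 0 Gzma UMIs, 600.2 CPM with 2, 705 CPM with 3 and 899.9 CPM with 6 or more. T-lineage genes summed to 4425, 5614, 5714 and 6707 CPM in the same classes. Stromal genes summed to 1216, 373, 306 and 142 CPM. Between 0 and 2 UMIs the T-lineage sum was higher at 2 in 6 of 6 libraries and the stromal sum was higher in 0 of 6, and both means at 2 UMIs lay nearer to those at 3 than to those at 0. The step at the threshold was not uniform. From 2 to 3 UMIs Thy1 was higher in 6 of 6 libraries and the T-lineage sum in 5, but Il2ra and Bcl11b were higher in 3 of 6, with means of 487 CPM at 2 and 478 CPM at 3 for Bcl11b, and the stromal sum was also higher in 3 of 6.

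**Figure D4:**
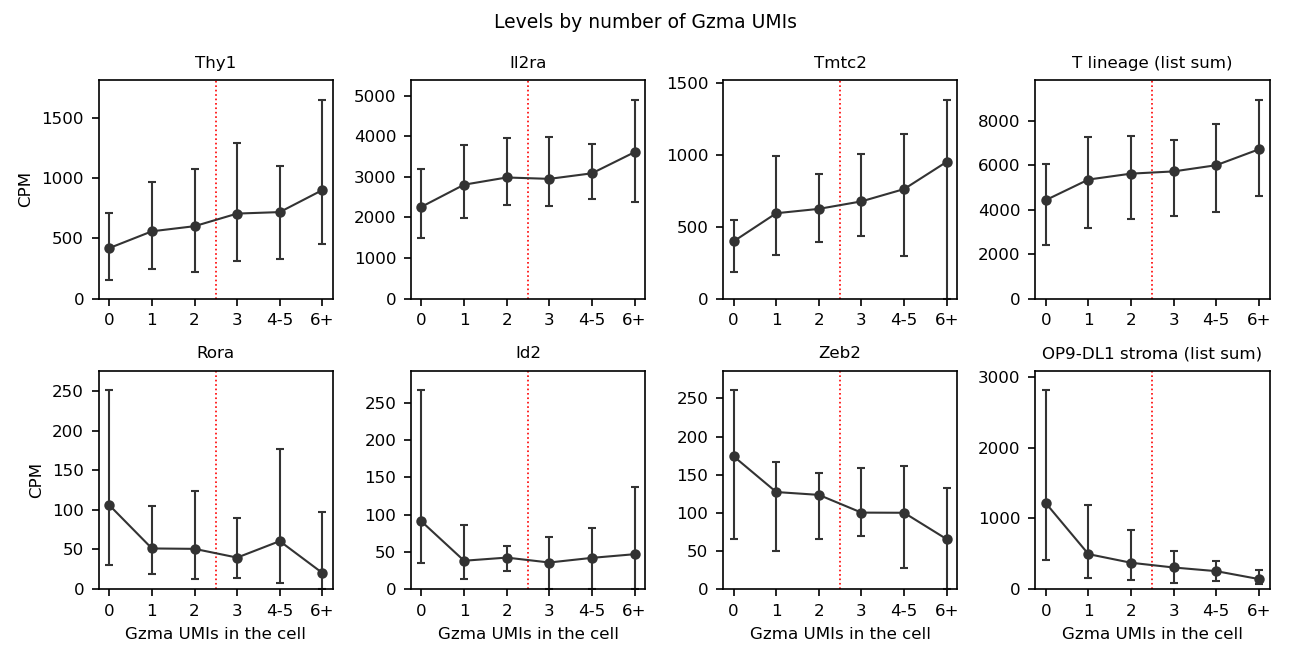
Levels (CPM, y axes from 0) of 6 genes and 2 summed lists, picked after their values were seen, in cells grouped by their Gzma UMIs (x axes), not matched for depth. Points are means over the 6 libraries, bars span the lowest and highest library and the dotted line marks the threshold of 3; Thy1 goes from 419 to 899.9 CPM and the stromal list from 1216 to 142 CPM.

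The difference between Gzma-high and matched cells was also tested for dependence on genotype. In the interaction of the Gzma-high difference with genotype, edgeR called 0 of 10985 genes (lowest adjusted p 0.348), 406 genes (3.70%) had an unadjusted p under 0.05, and DESeq2 called 0. The count was 5 with at least 2 Gzma UMIs as the threshold, 3 with at most 2000 genes in place of 2000 UMIs per cell, 2 with 1 matched cell per Gzma-high cell, 1 with up to 5 and 1 with another random seed. A size of difference that this design would miss was not tested. Within Gzma-high cells, genotypes were set side by side for 2242 genes with at least 20 UMIs per start, by a rule chosen after seeing the data and without a test. By this rule 5 genes (0.223%) were at least 1.5-fold higher and 5 (0.223%) lower in ΔTE at all 3 starts. Bcl11b was lower in ΔTE, with log2 ratios of -1.35 (-1.92 to -0.78), -1.17 (-1.47 to -0.87) and -1.01 (-1.51 to -0.52), and in matched cells from -1.63 to -0.87. Bcl11b was thus lower in ΔTE than in WT in Gzma-high and matched cells alike. Mid1, named after its values were seen, was lower by log2 ratios of -4.02, -2.96 and -3.28 in Gzma-high cells and -3.82, -2.35 and -3.26 in matched cells. Foxn3, Pknox1 and Slk were the other lower genes and Cacybp, Ccr2, Ndufa2, Pabpc4 and Vasp the higher ones, all named after their values were seen. By the same rule 3 of the 2242 genes were higher and 2 lower in matched cells, the latter Bcl11b and Mid1. Zbtb16 had log2 ratios of 0.90, 1.16 and -0.32 in Gzma-high cells and 0.15, 0.89 and 1.88 in matched cells, so that the DN2b start differed in direction between them.

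Detection of Bcl11b and Zbtb16 was sparse. Both genes had a UMI in 102 of 2408 Gzma-high cells (4.24%, 3.47% to 5.12%) and in 154 of 6964 matched cells (2.21%, 1.88% to 2.58%). Zbtb16 alone was found in 19.6% and 14.0%, Bcl11b alone in 14.0% and 11.6%, and neither in 62.2% and 72.2%. The share with both was not higher in Gzma-high cells of every library. It was 2.69% against 2.54% in matched cells, 3.12% against 2.36% and 9.35% against 4.05% in WT, and 3.45% against 1.13%, 5.19% against 2.16% and 3.35% against 3.42% in ΔTE. ΔTE DN2b was thus slightly lower in its Gzma-high cells, and the exact intervals of both kinds of cells overlapped in every library other than ΔTE DN1 and ΔTE DN2a. In ΔTE DN1, Zbtb16 alone was found in 29.6% of Gzma-high and 16.4% of matched cells, and in ΔTE DN2b in 10.1% and 16.7%. At these depths 0 UMIs do not show that a gene was not transcribed, so the share with both sets no limit on cells that transcribe both.

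The 250 bases upstream of Gzma, which chose the cells, and of the granule genes Gzmb and Nkg7 are shown because all 3 hold a short RUNX motif. Sequences are from RefSeq on GRCm38.p6, 5′ to 3′ on the gene's strand, with matches to TGTGGT or its reverse complement in capitals; the motif and the 3 genes were chosen after seeing the data. The windows are Gzma on the minus strand at chr13:113100982-113101231, Gzmb on the minus strand at chr14:56262335-56262584 and Nkg7 on the plus strand at chr7:43436888-43437137.
Gzma: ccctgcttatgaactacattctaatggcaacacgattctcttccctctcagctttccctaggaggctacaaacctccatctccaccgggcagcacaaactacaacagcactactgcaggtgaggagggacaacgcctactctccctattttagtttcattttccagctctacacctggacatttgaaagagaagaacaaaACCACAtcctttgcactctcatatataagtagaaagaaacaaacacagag
Gzmb: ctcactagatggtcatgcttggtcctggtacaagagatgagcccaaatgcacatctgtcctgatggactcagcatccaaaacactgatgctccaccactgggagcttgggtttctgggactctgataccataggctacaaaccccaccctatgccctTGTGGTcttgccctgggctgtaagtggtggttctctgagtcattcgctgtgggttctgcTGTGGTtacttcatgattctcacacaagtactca
Nkg7: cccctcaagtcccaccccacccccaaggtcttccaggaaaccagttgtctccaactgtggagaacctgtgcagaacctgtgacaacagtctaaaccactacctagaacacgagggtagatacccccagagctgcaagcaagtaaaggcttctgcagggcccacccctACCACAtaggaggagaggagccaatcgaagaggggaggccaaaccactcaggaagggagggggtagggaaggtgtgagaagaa
The motif was found in 14.0% of all 32851 promoter windows, in 11.1% of 199 windows of 148 higher genes and in 10.0% of 699 windows of 507 lower genes. The ETS motif AGGAAGT was in 7.69%, 8.04% and 6.29%, the GATA motif AGATAA in 9.99%, 8.04% and 3.86%, and the TCF motif CTTTGAA in 4.46%, 2.51% and 3.43%. None of the 4 motifs was clearly more frequent in windows of higher genes than in all windows. The table held no window for Thy1, Cxcr5 or Zbtb16.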

How the data were processed

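The authors deposited UMI counts per gene and barcode before any filter on cells. The aligner is not given in the sources used here, and the submitters' processing notes name mm9, although 27924 of 28048 gene identifiers are in GENCODE M21, so no coordinates were taken from the files. Barcodes with under 200 genes, over 2000 UMIs or over 30% mitochondrial UMIs were left out, and no doublet caller was used. Up to 3 Gzma-zero cells within 10% of a cell's UMIs (Gzma left out) were drawn without replacement (seed 0). Summed UMIs of genes with at least 20 UMIs were tested two-sided with edgeR 4.0.16 (glmQLFit, TMM scaling, Benjamini-Hochberg adjustment, library block), in R 4.3.3, and with DESeq2 1.42.0. The edgeR fit was tested on simulated data. The 3 libraries of a genotype share a pool of mice. The p-values thus measure the spread of the paired difference over libraries from 1 pool per genotype, not between mice. Intervals are exact 95% intervals and cover counting error only. Named genes were a list of 27, the 12 highest and 8 lowest fold changes of one direction in all libraries, and up to 3 called members and the most abundant gene of each list; others, among them Trat1, Cd24a, Cd44 and Mid1, were chosen after their values were seen. Of the named genes, 2 are not reported here. The members and lists were chosen with earlier results of these data known. Motifs, the genotype rule and 2 alternatives on stromal and myeloid UMIs were chosen after seeing the data. Tests were repeated under 16 other choices of processing and without each library in turn. Scripts used Python 3.11.15, scipy 1.17.1 and pandas 2.3.3.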

Additional observations from a re-analysis of the deposited data

Results flagged for a closer look

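Sox4, a factor of lymphoid progenitors, was lower in Gzma-high than in matched cells of all 3 WT libraries and higher in those of all 3 ΔTE libraries, with levels of 516, 648 and 664 CPM in Gzma-high cells of WT and 611, 631 and 739 CPM in those of ΔTE, against 597, 845 and 711 CPM and 547, 603 and 592 CPM in matched cells. The log2 difference, ΔTE minus WT, was 0.45, and edgeR's interaction did not pass (adjusted p = 1, unadjusted p = 0.00830).

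Barcodes outside the filter also held Gzma. Above 2000 UMIs, 3 or more Gzma UMIs were found in 23.8%, 26.5% and 23.5% of barcodes of WT from the DN1, DN2a and DN2b starts and in 26.1%, 34.4% and 33.3% of those of ΔTE. Above 30% mitochondrial UMIs the shares were 1.41% in WT DN1 and 0.930% in WT DN2b, and 3.30%, 4.67% and 4.19% in ΔTE. Under 200 genes they were 0.0129%, 0.0584% and 0.00983% in WT and 0.0392%, 0.103% and 0.0333% in ΔTE. WT DN2a had 1 such barcode of 518 above 30% mitochondrial UMIs, which is within the limit that a count of 0 allows. In these latter classes each ΔTE library was above the WT library of its start. These barcodes differ in depth from filtered cells, and their part in the shares was not tested.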

How the results depend on the processing

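Share ratios kept their direction in all alternatives. With at least 2 Gzma UMIs the log2 ratio was 0.87 for DN1 and 1.16 for DN2a, and with at least 5 it was 1.67, 2.20 and 2.18. Counts of higher and lower genes (195 and 685) moved with the choice of cells and fit. Higher genes numbered 351 with at least 2 Gzma UMIs, 27 with at least 5, 96 with at most 1000 UMIs, 31 with at most 20% mitochondrial UMIs, 48 with DESeq2, 15 with no library block, 69 without cells of 2 or more stromal UMIs and 48 in cells with no stromal or myeloid UMI. Lower genes numbered 1014 with at least 2 Gzma UMIs, 823 with at most 2000 genes, 194 with at least 5 Gzma UMIs, 355 with at most 1000 UMIs, 269 with at most 20% mitochondrial UMIs, 215 with DESeq2, 208 with no library block, and 79 and 31 in the latter 2 sets of cells. Higher and lower genes numbered 176 and 707 with at least 300 genes per cell, 147 and 497 with 1 matched cell, 193 and 758 with up to 5, 197 and 764 with matched cells of the same well, 170 and 743 with another seed, 211 and 701 with total UMIs in place of TMM and 139 and 669 with no minimum number of UMIs per gene, and 259 were higher with at most 2000 genes. Leaving out each library gave 101 to 221 higher and 415 to 719 lower genes, and 0 to 1 for the interaction. The interaction, at 0, had 5 genes with at least 2 Gzma UMIs, 3 with at most 2000 genes, 2 with 1 matched cell, 1 with 5 matched cells and 1 with another seed. The 2 stromal and myeloid alternatives were added after seeing the data.

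Of 74 named genes that passed the test, 1571 of 1576 values under alternatives kept their direction, 1178 also passed and 393 no longer passed; Tmtc2 alone passed in every one, and 60 of the 74 calls were lost with no library block. The 19 named genes that did not pass gave 408 values, of which 60 in 12 genes changed sign, 0 of them past the threshold, and 6 passed in the same direction. Values that changed sign follow. With at least 2 Gzma UMIs the log2 values were Cd160 -0.072, Kit -0.0074 and Erg 0.071. With at least 5 Gzma UMIs the log2 values were Cd3g -0.031, Cd160 -0.17, Runx1 -0.26, Tox 0.024, 5830411N06Rik -0.16, Plcg2 -0.10, Pola1 -0.30 and Top2a -0.043. With at most 1000 UMIs the log2 values were Cd160 -0.077, Kit -0.17, Runx1 -0.084, Plcg2 -0.042 and Pola1 -0.13. With at most 20% mitochondrial UMIs the log2 values were Cd160 -0.029, Runx1 -0.14, Plcg2 -0.12 and Top2a -0.16. With 1 matched cell the log2 values were Il2rb 0.0020, Tox 0.018 and Pola1 -0.013. With matched cells of the same well it was -0.050 for Kit. With another seed it was -0.034 for Runx1. With DESeq2 the log2 values were Gzmb -0.053, Il2rb 0.082, Cd160 -0.058 and Kit -0.039. With no minimum of UMIs the log2 values were Kit -0.0061 and Runx1 -0.019. With no library block the log2 values were Gzmb -0.045, Cd160 -0.048 and Kit -0.020. Without cells of 2 or more stromal UMIs the log2 values were Cd160 -0.094, Kit -0.11, Runx1 -0.12, Sox4 0.050, Col1a2 0.45, Plcg2 -0.072, Id3 0.43, Pola1 -0.066 and Top2a -0.048. In cells with no stromal or myeloid UMI the log2 values were Cd160 -0.028, Kit -0.21, Runx1 -0.12, Sox4 0.018, Plcg2 -0.061, Id3 0.14, Pola1 -0.12 and Top2a -0.019. Leaving out each library, the log2 values ranged from -0.46 to 0.50 for Il2rb, -0.096 to 0.24 for Cd160, -0.097 to 0.083 for Kit, -0.038 to 0.053 for Runx1, -0.18 to 0.056 for Tox, -0.24 to 0.024 for Lpcat2, -0.086 to 0.034 for Sox4, -0.27 to 0.050 for Erg and -0.017 to 0.11 for Pola1. The cause was not tested for any of these.

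Depth limits the lower genes, since 71 of 685 had 0 UMIs in Gzma-high cells. The library block pairs the 2 sums of each library.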

Other observations

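Mitochondrial shares of Gzma-high cells were below those of matched cells in every library, by a small margin in most. The median was 22.3%, 11.5% and 22.6% in WT and 23.3%, 20.6% and 24.8% in ΔTE, against 23.4%, 15.2% and 24.0% and 23.5%, 22.2% and 25.1% in matched cells. The difference was largest in WT DN2a.

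Gzma-high cells were deeper than Gzma-zero cells before matching. Their median total without Gzma was 690.0, 529 and 705 UMIs in WT and 703, 619 and 574 UMIs in ΔTE, against 446, 371, 438, 457, 424 and 406 UMIs in all Gzma-zero cells. A threshold in UMIs selects deeper cells, and matching brought the medians of matched cells to 571 to 705 UMIs outside WT DN2a.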
